A study of Mus musculus with 2 samples.

Results

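The 4 AMPA receptor subunit genes (Gria1 to Gria4) and the 5 kainate receptor subunit genes (Grik1 to Grik5) were described in the neural tube of newborn mice. They were found by matching the gene IDs of the deposited tables to symbols, and all 9 had a row among the 43346 gene rows. The samples were 2 neural tubes of the B6NCrl strain at postnatal day 0, each a single tube from 1 pup. Both pups came from 1 pregnancy, carried no treatment or engineered allele that the labels name, and formed 1 group with n = 2. Total RNA above 200 bases was extracted with the mirVana kit, and 10 ng with added spike-ins entered each library. Sex was not collected. There was no contrast between conditions, so no test was made and no p-value is given, and every difference between the pups rests on 1 library each.

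AMPA and kainate receptors are cation channels opened by glutamate and assembled as tetramers. AMPA receptors carry most of the fast excitatory current at central synapses, and the GluA2 subunit, made from Gria2, limits their calcium permeability once its RNA has been edited at the glutamine codon of the pore. Kainate receptors combine GluK1 to GluK3, which can form channels alone, with GluK4 and GluK5, which bind glutamate with high affinity and need a partner of the first kind. In the spinal cord both classes act in motor and sensory circuits. Each AMPA subunit gene also carries a pair of mutually exclusive exons near the end of its coding region, called flip and flop, which set how fast the channel desensitizes. Flip forms are known to prevail before birth, with flop forms gaining afterwards.

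The flip and flop exons separate the forms that the transcript tables quantify, so the pairs of Gria2 and Gria4 are shown as the genes with the highest flip share by TPM and with no clear separation of the forms. The sequences are from GENCODE M21 transcripts on GRCm38, 5′ to 3′ on the coding strand, which is the minus strand for both genes, and the capitals mark the bases that differ between the 2 exons of a gene. Gria2 flop lies at chr3:80691320-80691434, Gria2 flip at chr3:80690404-80690518, Gria4 flop at chr9:4432773-4432887 and Gria4 flip at chr9:4427030-4427144.
Gria2 flip exon: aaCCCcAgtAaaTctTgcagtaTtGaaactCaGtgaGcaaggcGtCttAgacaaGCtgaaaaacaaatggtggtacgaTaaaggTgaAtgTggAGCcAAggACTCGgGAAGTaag
Gria2 flop exon: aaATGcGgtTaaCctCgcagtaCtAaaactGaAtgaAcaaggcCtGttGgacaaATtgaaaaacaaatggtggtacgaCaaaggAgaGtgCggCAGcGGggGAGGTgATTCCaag
Gria4 flip exon: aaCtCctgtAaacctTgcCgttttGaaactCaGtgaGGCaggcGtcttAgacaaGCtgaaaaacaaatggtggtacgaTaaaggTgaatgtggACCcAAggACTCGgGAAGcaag
Gria4 flop exon: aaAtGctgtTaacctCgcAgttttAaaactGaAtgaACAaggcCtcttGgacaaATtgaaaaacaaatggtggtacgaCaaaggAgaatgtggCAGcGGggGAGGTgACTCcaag
All 8 exons of the 4 genes were 115 bases long, and in all 4 genes the flop exon lay upstream of the flip exon. Flip and flop differed at 36 bases in Gria1, 36 in Gria2, 32 in Gria3 and 31 in Gria4. These changed 8, 9, 9 and 10 of the 38 whole codons in the encoded residue. The exons were named by a codon that gives serine in flip and asparagine in flop, the residue known to set sensitivity to the drug cyclothiazide. This pair of residues is thus the naming rule, and its codon lay at the same place in all 4 genes. In Gria1 2 codons had such a pair, and the first was used. The flop exons of Gria2, Gria3 and Gria4 encoded the same residues (0 differing), although their bases were 93.9% to 94.8% identical. The flip exons of the same 3 genes differed from each other at 1 to 3 residues.

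The pore codon that RNA editing changes in Gria2 was located in all 9 genes, because it tells which truncated transcripts could encode a pore. It is shown in capitals for the member of each class with the highest TPM, and for Gria4, whose transcript with the highest TPM lacks it. The windows lie at chr3:80706908-80706928, chr9:4464134-4464154 and chr16:87940539-87940559, all on the minus strand.
Gria2 pore window: ttgggtgcctttatgCAGcaa
Gria4 pore window: ctgggtgcctttatgCAAcaa
Grik1 pore window: gttggagctctcatgCAGcaa
The codon was located by searching the encoded protein for methionine, glutamine, glutamine and glycine in a row. Glutamine in all 9 genes thus follows from the search and is not a result. Editing of Gria2 replaces its pore codon in the RNA only. The deposited tables hold no base calls, so the edited share was not analysed here.

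Over all genes, pup 1 gave 26916916 expected counts and pup 2 gave 40003518, and the 9 members took 24204 and 32777 of them. An expected count is the estimated number of reads of a gene. The 9 members had 611 counts or more in each library, far above the limit of 3 counts that a count of 0 allows, which is 0.111 and 0.075 CPM (counts scaled to library size). The tissue label was checked against marker genes with detection set at 1 TPM (a transcript level scaled for length and depth). All 6 neuronal, 6 motor neuron, 6 astrocyte and 6 spinal Hox genes were detected in both pups, as were the 4 genes each of oligodendrocyte precursors and microglia. Of 6 forebrain genes 2 were detected in both pups, the higher being Neurod6 at 31.0 ± 3.01 TPM (SD, n = 2), while Lhx2 was at 0.825 ± 0.205 and Otx1 had 0 counts in both pups. The libraries were thus rich in spinal cord markers, and the forebrain markers Emx1 and Otx1 were at or near 0. Of 8 sensory ganglion genes 3 were detected in both pups, and Avil, P2rx3 and Scn10a only in pup 2. These values come from whole tissue, in which fewer cells of a type and less RNA per cell cannot be told apart.

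Gria2 was the most abundant of the 9 genes. Its level was 160.62 TPM in pup 1 and 136.75 in pup 2 (149 ± 16.9, SD, n = 2), above 92.3% of the 13698 protein-coding genes detected in both pups. Gria1 (GluA1), the subunit known for activity-dependent synaptic insertion, was at 50.79 and 41.57 TPM (46.2 ± 6.52). Gria4 (GluA4), the subunit with the fastest channels, was at 39.0 and 36.43 TPM (37.7 ± 1.82). Gria3 (GluA3), which pairs with GluA2, was the lowest AMPA gene at 15.25 and 15.13 TPM (15.2 ± 0.0849). All 4 AMPA genes held this order in both pups, and the pups' values of neighbouring genes did not overlap.

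The kainate genes lay lower. Grik1 (GluK1) led them at 23.2 and 21.92 TPM (22.6 ± 0.905), above 56.5% of detected coding genes. Grik2 (GluK2) followed at 18.58 and 18.34 TPM (18.5 ± 0.17), close to the middle of detected coding genes. Grik5 (GluK5), of the high-affinity kind, was at 13.96 and 14.75 TPM (14.4 ± 0.559). Its partner in that kind, Grik4 (GluK4), was at 9.25 and 7.68 TPM (8.47 ± 1.11). Grik3 (GluK3) was the lowest of all 9 in TPM at 4.42 and 3.38 TPM (3.9 ± 0.735), above 15.6% of detected coding genes. Across both classes the order in either pup was Gria2, Gria1, Gria4, Grik1, Grik2, Gria3, Grik5, Grik4 and Grik3.

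Each deposited level comes with an interval for estimation error, whose probability level is not stated. It is centred on a posterior mean, so that the TPM itself can fall outside it, as for Gria2 in pup 1 with 160.62 against 152.6 to 158.8. By these intervals Gria3 and Grik5 could not be ranked in either pup, since 14.3 to 18.3 met 12.7 to 14.4 TPM in pup 1 and 13.8 to 17.1 met 13.7 to 15.2 in pup 2. Grik2 and Gria3 overlapped in pup 1 (17.5 to 19.6 against 14.3 to 18.3) and not in pup 2. The other 6 pairs of neighbours had separate intervals in both pups.

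**Figure D1:**
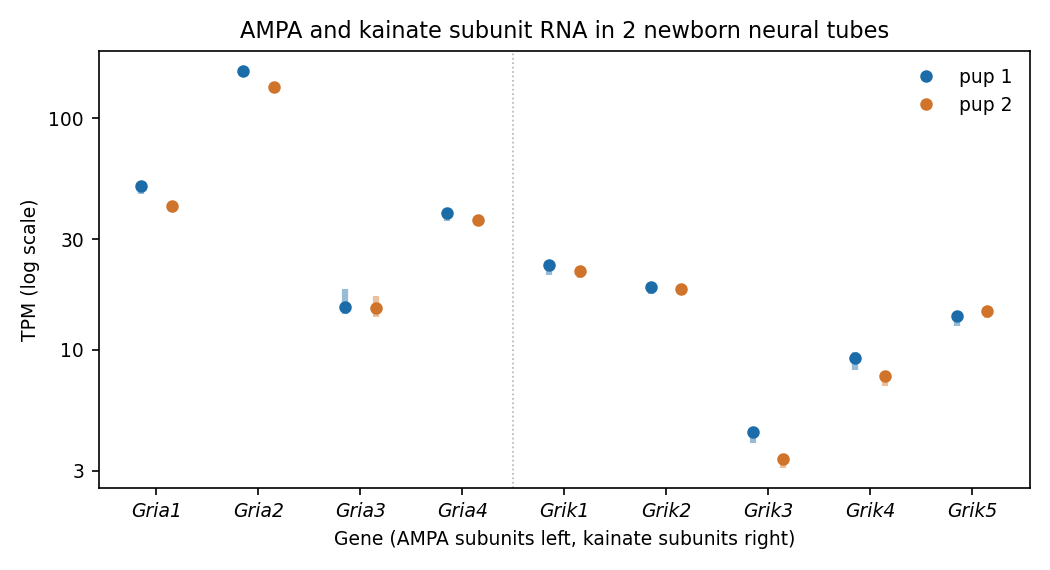
Level of each AMPA and kainate receptor subunit gene in TPM on a log axis, with a point for each pup and a bar for the interval deposited with that value. Gria2 stands highest at 160.62 and 136.75 TPM and Grik3 lowest at 4.42 and 3.38, and the order of the genes is the same in both pups.

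Within the AMPA class Gria2 supplied the most RNA. Its share of the summed TPM of the 4 genes was 60.5% in pup 1 and 59.5% in pup 2 (60% ± 0.688). Gria1 held 19.1% and 18.1%, Gria4 14.7% and 15.8%, and Gria3 5.74% and 6.58%. The largest difference between the pups was 1.17 percentage points, for Gria4. Over transcripts annotated as protein coding the Gria2 share was 43.9% on average, still the highest of the 4 but less than the other genes together. That set leaves out the retained-intron transcripts of Gria2 but keeps the Gria4 transcript without the pore codon, and Gria4 held 21.7% in it. Over all transcripts the summed level of the 4 genes was 265.66 and 229.88 TPM (248 ± 25.3).

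Within the kainate class no gene reached that dominance. Grik1 held 33.4% and 33.2% of the summed TPM (33.3% ± 0.175) and Grik2 26.8% and 27.8% (27.3% ± 0.7). Grik5 held 20.1% and 22.3%, Grik4 13.3% and 11.6%, and Grik3 6.37% and 5.12%. The genes for the subunits that form channels alone, Grik1 to Grik3, made up 66.6% and 66.1%, and Grik4 and Grik5 together 33.4% and 33.9%. The kainate sum was 69.41 and 66.07 TPM (67.7 ± 2.36), so AMPA subunit RNA exceeded it 3.83-fold in pup 1 and 3.48-fold in pup 2. These ranks depend on dividing by length: in expected counts, which are not, Grik1 held 22.1% and Grik2 31.5% on average, and Grik2 led in both pups. Grik3 then held 13.2% on average against 5.74% in TPM, and in pup 1 it had more counts than Grik4 (676 and 611).

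**Figure D2:**
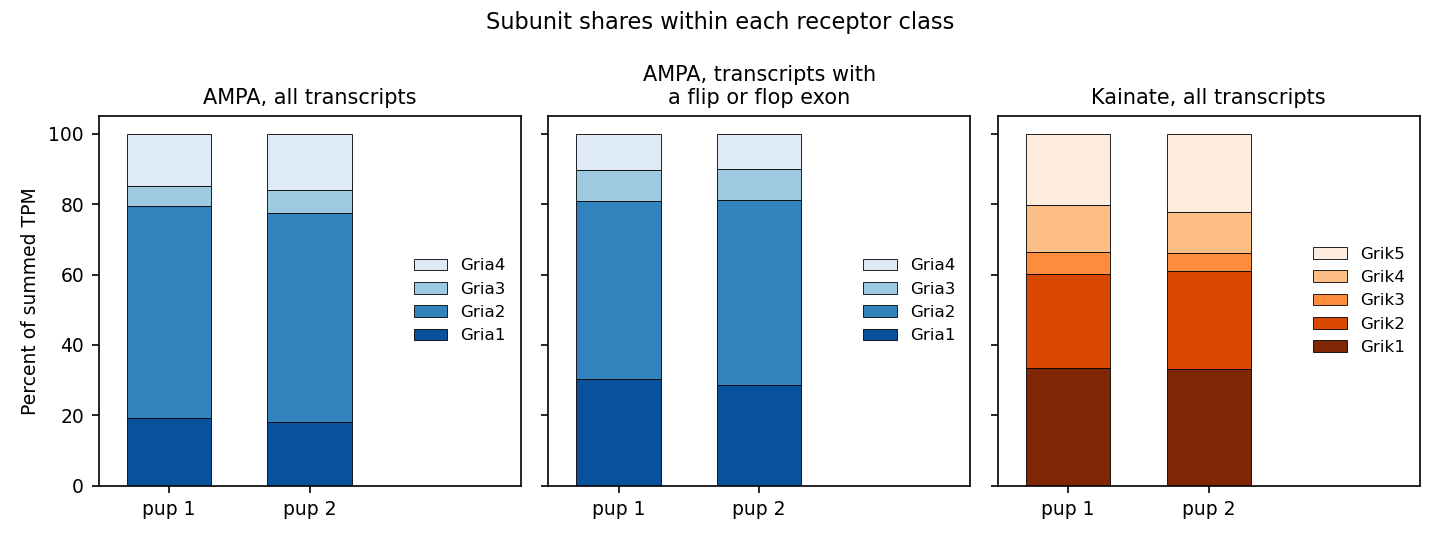
Share of each gene in the summed TPM of its receptor class, in percent, as a stacked bar for each pup. Gria2 holds 60.5% and 59.5% of the AMPA sum over all transcripts and 50.6% and 52.7% over transcripts with a flip or flop exon, and Grik1 holds 33.4% and 33.2% of the kainate sum.

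The gene totals hide large differences in what the transcripts could encode. The tables listed 40 transcripts of the 9 genes, of which 34 were found in GENCODE M21 and 30 had the same length there. Transcripts that hold a flip or a flop exon and are annotated as coding made up 92.2% and 96.6% of Gria1 TPM in pups 1 and 2, and 90.0% and 81% of Gria3. For Gria2 the figures were 48.9% and 54.1%, and for Gria4 40.9% and 38.8%. When the AMPA shares were taken over these transcripts alone, an alternative added after the values had been seen, Gria2 still led with 50.6% and 52.7%. Gria1 then held 30.2% and 28.6%, Gria4 10.3% and 10.1%, and Gria3 8.86% and 8.71%. Gria4 thus stood next to Gria3 in that set, with the same order in both pups.

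The transcript Gria2-206, annotated as a retained intron, accounted for most of the rest of Gria2. It was at 66.75 and 52.02 TPM, 41.6% and 38% of the gene, from 3872 and 4649 expected counts, fewer than the 4430 and 6581 of Gria2-202. It shares 11 whole exons with the flip form Gria2-202, holds the pore codon shown above, and ends 764 bases into an intron at chr3:80691521-80692284 on the minus strand, short of both the flip and the flop exon. All annotated retained-intron transcripts of Gria2 together held 46.8% and 43.7% of its TPM, and those of Gria3, the other member with any in M21, 9.98% and 9.24%. A share of at least 25% in both pups was reached by 1 of these 2 members. Among all genes with a mean of 5 TPM or more and several transcripts, one of them a retained intron, 17.5% (821 of 4700) reached it. From these tables a finished transcript and precursor RNA that still holds the intron cannot be told apart.

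Gria4 had a different majority form in TPM. Gria4-203 held 59.1% and 61.2% of the gene at 23.03 and 22.3 TPM, and its deposited intervals overlapped between the pups. It is annotated as protein coding, with 1299 coding bases against 2706 in Gria4-201. It shares 10 exons with Gria4-201 and then ends in a 590-base exon of its own at chr9:4478263-4478852 on the minus strand. It holds neither the pore codon nor a flip or flop exon. Its last exon overlaps no exon of the other Gria4 transcripts in M21 and lies in an intron of Gria4-201. From these tables finished Gria4-203 and precursor RNA that still holds this intron cannot be told apart. The full-length flip form Gria4-202 held 26.1% and 20.7%, and the flop form Gria4-201 14.9% and 18%. Gria4-203 is 2338 bases long and the other forms 5441. In expected counts, which are not divided by length, Gria4-203 had 890 and 1327, Gria4-202 936 and 1073, and Gria4-201 535 and 933. On that scale Gria4-203 was not the majority in either pup and lay below Gria4-202 in pup 1.

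**Figure D3:**
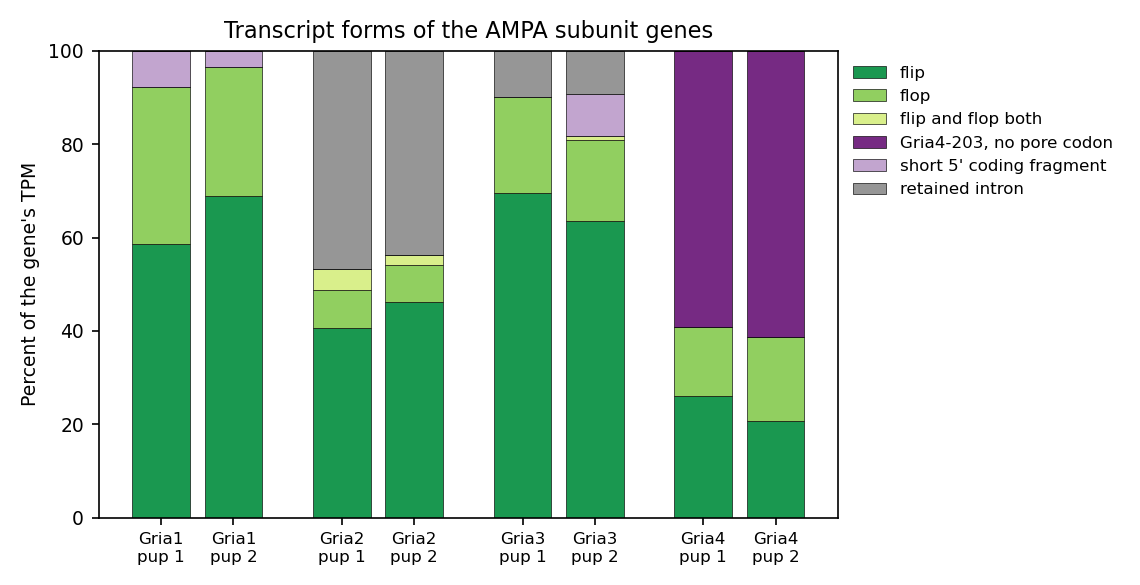
Transcript forms of the 4 AMPA subunit genes as a percentage of each gene's TPM, a stacked bar for each gene and pup. Flip and flop forms fill most of the Gria1 and Gria3 bars, whereas retained-intron transcripts take 46.8% and 43.7% of Gria2 and Gria4-203 takes 59.1% and 61.2% of Gria4.

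Among transcripts with 1 of the 2 exons, flip forms were the more abundant in both pups for Gria1, Gria2 and Gria3. Over the 4 genes together flip made up 74.8% of flip plus flop TPM in pup 1 and 77.5% in pup 2 (76.1% ± 1.92). In TPM Gria2 had the highest flip share at 83.3% and 85.3%, with Gria2-202 (flip) at 65.4 and 63.07 TPM and Gria2-201 (flop) at 13.07 and 10.91. Gria3 had 77.2% and 78.5%, with Gria3-201 (flip) at 10.6 and 9.61 TPM and Gria3-202 (flop) at 3.13 and 2.63. Gria1 had 63.5% and 71.4%, with Gria1-201 (flip) at 29.75 and 28.64 TPM and Gria1-202 (flop) at 17.08 and 11.5. In these 3 genes the deposited intervals of the flip and the flop transcript were apart in both pups.

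For Gria4 flip and flop could not be ranked. The flip form was at 10.16 and 7.56 TPM and the flop form at 5.81 and 6.57, a flip share of 63.6% and 53.5%. Their intervals overlapped in each pup, with 6.25 to 12.7 against 2.60 to 8.96 TPM in pup 1 and 5.72 to 9.50 against 4.48 to 8.23 in pup 2.

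The flip and flop transcripts differ elsewhere too, which bears on these shares. Gria2-201 (flop) has a last exon of 7265 bases and Gria2-202 (flip) one of 920. In Gria3 it is the flip form that has the longer last exon, 2262 bases against 246. In expected counts, which are not divided by length, the flip share of Gria3 was 85.3% and 86.2%, that of Gria2 65.7% and 68.9% and that of Gria1 64.2% and 71.9%. On that scale Gria3 and not Gria2 had the highest share, and Gria2 was below Gria1 in pup 2. The 2 Gria4 forms have the same deposited length of 5441 bases, and their count shares were 63.6% and 53.5% as well. How far reads from the unlike last exons, rather than from the flip and flop exons, set the split was not tested.

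Grik1 was the member whose transcripts differed most between the pups, while its total was alike. Grik1-202 was at 15.57 TPM in pup 1 and 7.84 in pup 2, or 67.1% and 35.8% of the gene. Grik1-201 was at 6.16 and 13.28 TPM, or 26.6% and 60.6%. The pups' intervals did not overlap for either, with 11.5 to 18.4 against 5.39 to 10.4 TPM for Grik1-202 and 2.49 to 9.27 against 10.1 to 15.3 for Grik1-201. Within pup 1 the interval of Grik1-202 lay above that of Grik1-201, while within pup 2 the 2 intervals overlapped, so that the forms could not be ranked there. The third form, Grik1-203, with another last exon, held 6.32% and 3.68%.

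In GENCODE M21 these forms differ in coding sequence by 1 exon of 87 bases, 29 codons, at chr16:87896809-87896895 on the minus strand near the end of the coding region. It is shown in lower case throughout, 5′ to 3′ on the coding strand, since the whole of it is the difference.
Exon in Grik1-202 and not in Grik1-201: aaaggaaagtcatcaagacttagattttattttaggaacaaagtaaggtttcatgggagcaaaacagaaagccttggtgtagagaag
The coding sequence of Grik1-202 without this exon equals that of Grik1-201. The exon content of the forms that were quantified, which come from the M4 annotation, was not read directly. Their deposited lengths also differ by 87 bases (2688 and 2601), but both are shorter than the M21 coding sequences (2802 and 2715), so the quantified models do not hold all of the coding sequence described. The cytoplasmic tail of GluK1, which this stretch of the gene encodes, is known to differ between its splice forms and to affect trafficking.

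The share of a transcript differed by at least 30 percentage points between the pups in Grik1 alone (34.0 points) of the 7 members with several transcripts. Over all 8481 genes with several transcripts and a mean of 5 TPM or more, 1.34% (114 genes) did so, under a threshold set after the Grik1 values had been seen. The leading transcript differed between the pups in 2 of the 7 members, Grik1 and Gria2, against 8.17% (693) of the same 8481 genes. In Gria2 the margin was narrow in pup 1, with 41.6% for Gria2-206 and 40.7% for Gria2-202, and in expected counts Gria2-202 led in both pups. GluK1 is known in sensory neurons of the dorsal root ganglia, and all 8 marker genes of those cells were higher in pup 2. Their summed level was 275 TPM in pup 1 and 357 in pup 2. In pups 1 and 2 Avil was at 0.70 and 8.55 TPM, P2rx3 at 0.58 and 4.95, Scn10a at 0.19 and 1.35, and Trpv1, the lowest on average, at 0.22 and 0.48. The highest were Tac1 at 208.21 and 237.96 and Calca at 63.51 and 92.53. The 6 motor neuron genes summed to 165 TPM in pup 1 and 203 in pup 2, a rise that came mostly from Prph, at 94.76 and 126.37. Chat was slightly lower in pup 2, at 4.17 and 4.04. The other 5 were higher in pup 2, with Slc18a3 nearly level at 40.61 and 42.61. The part of either cell type in the Grik1 difference was not tested.

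**Figure D4:**
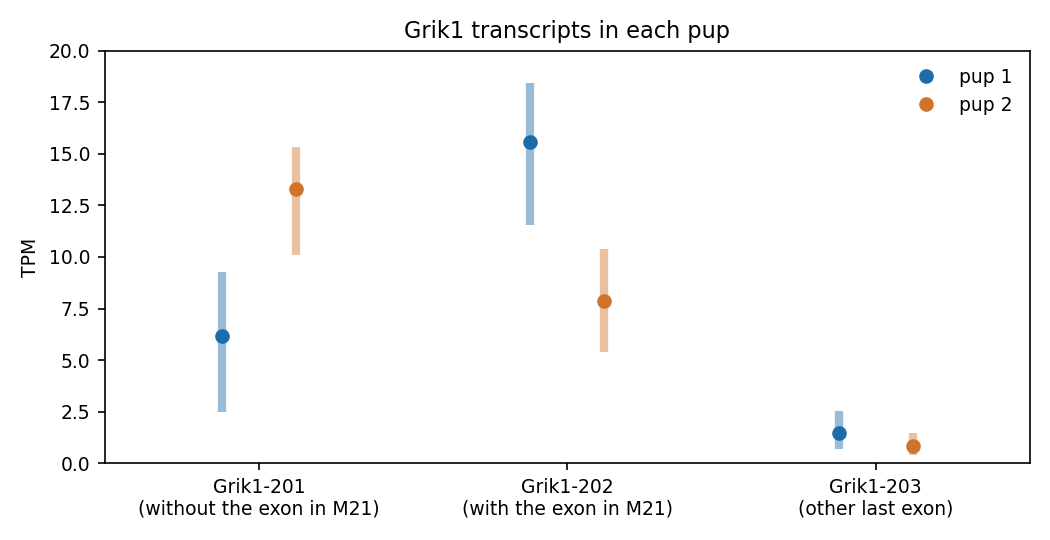
Level of the 3 Grik1 transcripts in TPM, with a point for each pup and a bar for the deposited interval. Grik1-202, which holds the 87-base exon in M21, is at 15.57 TPM in pup 1 and 7.84 in pup 2, and Grik1-201, which lacks it in M21, is at 6.16 and 13.28.

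The other kainate genes had a steadier makeup. Grik2 was led by ENSMUST00000105487 with 89.9% and 82.3% of its TPM, followed by ENSMUST00000147808 with 7.8% and 5.75%. Neither is in M21, so their exon content was not determined. Grik4-201 held 79.2% and 70.2% of Grik4 and Grik4-202 20.8% and 29.9%. Both encode 2868 coding bases and differ in their ends. Grik3 and Grik5 each had 1 transcript, Grik3-201 and Grik5-201.

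Gene totals of the members differed little between the pups. On the CPM scale with TMM factors, which sets the bulk of genes equal, the log2 difference of pup 2 minus pup 1 ran from -0.31 for Grik3 to 0.15 for Grik5. It was -0.15 for Gria1, -0.15 for Gria2, -0.12 for Grik4, and between -0.06 and -0.03 for Gria3, Gria4, Grik1 and Grik2. None of the 9 reached 2-fold, which 0.472% (64 of 13545) of genes averaging 100 counts or more did. Over those genes the 5th percentile was -0.29 and the 95th 0.34, so Grik3 lay just below the former and the other 8 members inside this range. Grik5 alone was higher in pup 2, and this direction turned to -0.15 on the scale of the summed spike-in counts, 335 and 603, which shifts every log2 difference by -0.28 from the scale of library totals.

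The deposited intervals are on the TPM scale and not on the CPM scale with TMM factors. Over genes averaging 100 counts or more the median log2 difference was -0.06 in deposited TPM and 0.001 with TMM factors. On the TPM scale the intervals of the pups were apart for some members. In Gria1, Gria2, Grik3 and Grik4 the interval of pup 2 lay wholly below that of pup 1, 4 of 9 members against 15.9% of genes averaging 100 counts or more. In no member did it lie wholly above, against 7.72% of genes. For Gria1 the intervals were 46.9 to 53.2 and 39.5 to 43.2 TPM, and for Grik3 3.96 to 4.61 and 3.08 to 3.55. These intervals cover estimation within 1 library and not the spread between animals. Of the 21 member transcripts with a mean count of at least 100, 7 had intervals that did not overlap, against 16.7% of such transcripts of all genes.

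The difference in a gene total was carried by some of its transcripts more than by others. For Gria2 pup 2 minus pup 1 was -23.87 TPM, and Gria2-206 made up 61.7% of that, while the flip form Gria2-202 made up 9.76%, with intervals of 58.6 to 66.9 and 58.7 to 64.1 TPM. For Gria1 it was -9.22 TPM, of which the flop form Gria1-202 made up 60.5% and the flip form Gria1-201 12%. Gria1-203, a fragment of 287 bases, made up 27.4% from only 12.8 and 7.16 expected counts, so its share of the gene, 7.79% and 3.45%, rests on few reads.

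Genes that work with these receptors were present throughout. Of 27 genes for AMPA auxiliary and trafficking proteins 27 were at 1 TPM or more in both pups, with a median of 19.5 TPM. Cnih2, a cornichon that escorts AMPA receptors and slows their closing, was highest at 362 ± 0.134 TPM. Nsf, an ATPase of membrane fusion that binds GluA2, followed at 247 ± 12.9, and Pick1, which binds the tails of GluA2 and GluA3, at 62.5 ± 8.46. Cacng8, which encodes a transmembrane AMPA receptor regulatory protein, was lowest at 3.21 ± 0.148. Within that protein family, singled out after its values were seen, Cacng4 was highest at 57.5 ± 5.85 and Cacng2, the stargazin gene, was at 19.5 ± 0.46.

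The 4 kainate auxiliary genes were all detected in both pups. Neto2 and Neto1, whose proteins modulate kainate receptor gating, were at 20.7 ± 0.841 and 11.5 ± 0.106 TPM. C1ql3 was at 7.3 ± 0.156 and C1ql2, for secreted synaptic organizers that bind kainate receptors, was lowest at 2.9 ± 0.523. The 3 adenosine deaminase genes of RNA editing were detected as well. Adarb1, the enzyme known to edit the Gria2 pore codon, was at 18.51 and 17.18 TPM, Adar at 17.48 and 14.93, and Adarb2, which is thought to lack activity, at 9.17 and 6.31.

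**Figure D5:**
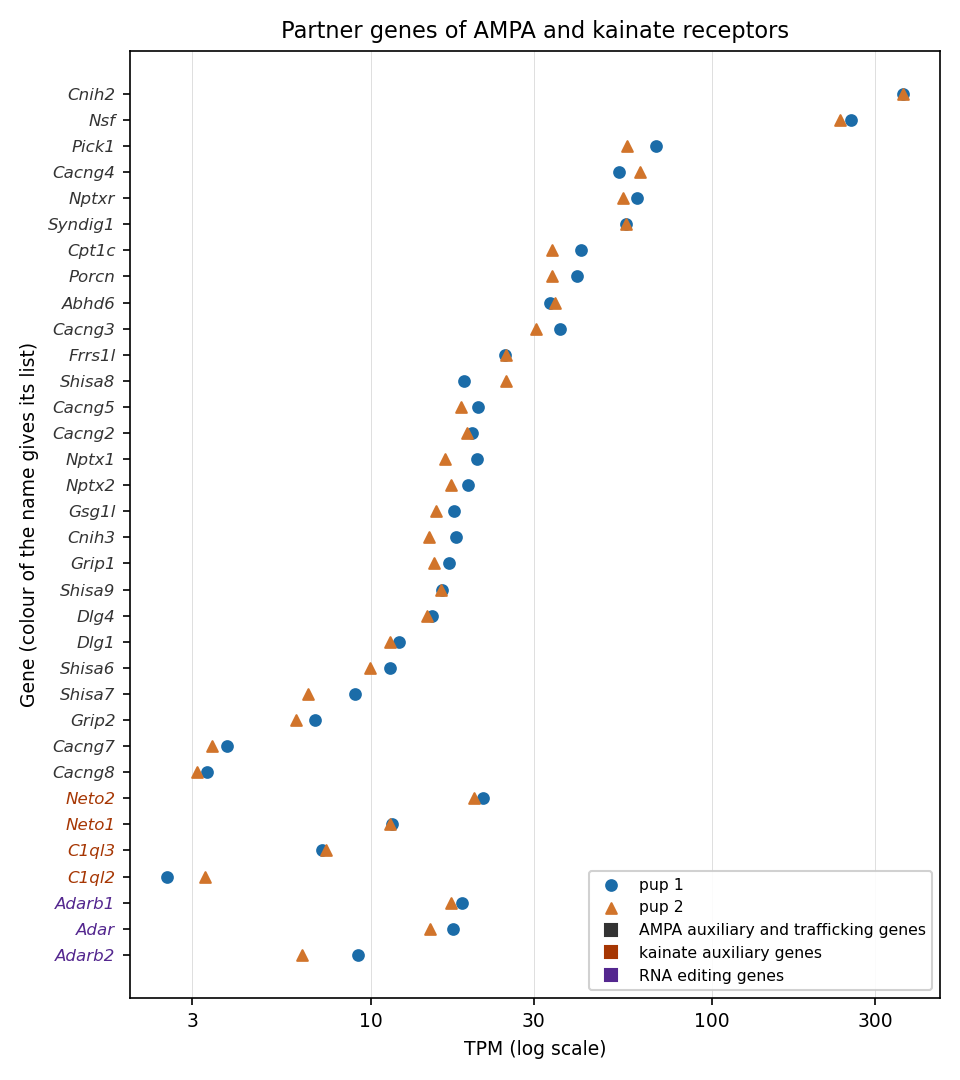
Levels in TPM, on a log axis, of 27 AMPA auxiliary and trafficking genes, 4 kainate auxiliary genes and 3 RNA editing genes, with a point for each pup. Cnih2 is highest at 362 TPM on average, C1ql2 is lowest at 2.9, and each of these genes is above 1 TPM in both pups.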

How the data were processed

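Per the file headers, each library has 1 gene and 1 transcript table with RSEM's column names. Expected counts, as deposited, are estimated reads that need not be whole. The deposited TPM and FPKM are scaled for length and depth, and the deposited percent column gives the part of a gene's TPM that a transcript holds. The deposited posterior mean values and interval bounds come from the same estimation. The deposited notes name mm10 and the M4 annotation. Aligner, software versions and strandedness were not given in the sources used here.

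Gene IDs were matched to GENCODE M21 on GRCm38, the same build. No other gene at a TPM above 0 shared exon bases with a member. Flip and flop exons, the pore codon and the Grik1 exon were read from M21 transcripts by exon position and reading frame. The pore codon was found by a search for its residues, and flip was told from flop by the serine codon. Expected counts were rounded for TMM scaling (edgeR 4.0.16, DESeq2 1.42.0 as an alternative, R 4.3.3), which was tested on simulated data. Other steps used Python 3.11.15, pandas 2.3.3, numpy 2.4.6, matplotlib 3.10.9 and biopython 1.88. The libraries differed by more than sampling noise, with a mean chi-square of 12.6 per gene over 18085 genes, and were counted as 2 samples.

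Named were all 9 members, their transcripts with a mean share of at least 5%, and of each partner or marker list the 3 highest, the lowest and any gene at 1 TPM in exactly 1 pup. A few genes that this rule takes are not reported here. Marker lists other than the sensory and forebrain ones are given as counts. The members and lists were chosen with earlier results of these data known.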

Additional observations from a re-analysis of the deposited data

How the results depend on the processing

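Of 149 values recomputed under other settings, leaving out a pup not counted, 115 moved by less than the spread between the pups, kept their sign or stayed within 1.5 times a count, 33 moved further and 1 changed sign, the Grik5 difference on the spike-in scale (-0.15). The order within the AMPA class was the same in posterior mean TPM, FPKM and expected counts. The Gria2 share of AMPA TPM was 59% in expected counts, 43.9% over protein-coding transcripts, where it was no longer the majority, and 51.6% over transcripts with a flip or flop exon. The Grik1 share of kainate TPM was 33.1% with posterior means and 22.1% in counts, where Grik2 led. The AMPA to kainate ratio was 4.03 and the flip share over the AMPA genes 68.0% in counts. Why the values moved was not tested. The moved values include the FPKM of each member, which is another unit than TPM. Where the pups were close, a small move also counted, as for the Grik1 share of 33.1% against 33.3% ± 0.175. Genes past 2-fold numbered 433 at a mean count of at least 10, against 64. Of the 8 sensory ganglion genes 5 were detected in both pups at 0.5 TPM, against 3 at 1 TPM. The values without replicate 1 or 2 are those of the single pups, which lie within 1 SD of the mean by construction and show no stability. The restriction to protein-coding transcripts was not run for Grik2, the kainate shares or the AMPA to kainate ratio, because the leading Grik2 transcript is not in M21. The flip share from counts, the set of flip or flop transcripts and the spike-in scale were chosen after seeing the data. With 2 pups of 1 litter, the SDs describe these animals only.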

Other observations

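Transcripts that hold the flip and the flop exon together, annotated as targets of nonsense-mediated decay, were measured for 2 genes. Gria2-203 was at 6.95 TPM in pup 1 and 3.09 in pup 2, or 4.33% and 2.26% of Gria2, and its intervals of 3.83 to 10.1 and 1.53 to 5.14 TPM overlapped. Gria3-206 was listed at 0 TPM in pup 1 and 0.12 in pup 2.

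The Hox genes with the highest levels differed between the pups in both directions. In pups 1 and 2 Hoxa7 was at 84.67 and 125.98 TPM, Hoxd10 at 104.99 and 63.16, and Hoxc10 at 77.44 and 41.36. Hoxc8 was at 22.83 and 52.01, Hoxc9 at 20.73 and 22.83, and Hoxb8 at 53.48 and 45.53. The summed level of the 6 Hox genes, 364 and 351 TPM, hides this. Their part in the Grik1 transcript difference was not tested.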
